A study of Mus musculus with 24 samples.

Results

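Microglia genes were followed in the prefrontal cortex (PFC) as a list of 40 genes that brain microglia are known to express, picked by symbol. Of these, 35 were rows of the table of 14074 genes, and P2ry6, Ptprc, Irf8, Dock2 and Dock8 were not analysed here. The least covered of the 35, Aif1, still had at least 31 reads in every library. The libraries came from 24 male C57BL/6 mice aged 10 to 12 weeks, in 6 groups of 4. Control mice had not been defeated and were housed singly for 5 days, whereas the stressed mice went through 30 consecutive days of chronic social defeat stress (CSDS), with confrontations of 5 min against an aggressive CD1 male. Hierarchical clustering of their behaviour had split the stressed mice into a passive coping strategy (PS) and an active coping strategy (AS), so that PS and AS were defined by behaviour. At 24 h after the last session, mice of each phenotype received 1 intraperitoneal injection of saline or of 2 mg/kg dexamethasone (DEX), a synthetic agonist of the glucocorticoid receptor, and tissue was taken 6 h later. The tissue was a block holding secondary motor, anterior cingulate, orbital, prelimbic and infralimbic cortex, cut after the olfactory bulbs had been taken off, so every value is an average over all cells of that block.

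Microglia are the resident macrophages of the brain, which survive on signals through the receptor CSF1R and keep their identity through TGF-beta signalling and the transcription factors PU.1 and SALL1. In the resting state they survey the tissue with motile processes and carry a set of receptors for ATP, ADP, chemokine and lipid signals, often called homeostatic genes. Glucocorticoids are known to act on these cells as well as on neurons, astrocytes and vessels. In bulk tissue, fewer microglia and less microglial RNA per cell cannot be told apart.

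Depth ran from 21121869 to 59439645 reads on genes per library. The median was 22869703 reads in control mice with saline and 23492571.5 with DEX, 24008145.5 and 24187702 in PS mice, and 34242531.5 and 37876626 in AS mice, so the medians were highest in AS mice. Levels below are normalized counts, in which the reads of a library were divided by its size factor, and differences are on the log2(normalized count + 1) scale, on which changes of weakly expressed genes come out too small. A gene was called where limma gave a Benjamini-Hochberg adjusted p under 0.1 over all 14074 genes. The defining genes of microglia that were in the table were detected in all 24 libraries. In each library only 33 to 158 of the 14074 genes had 0 reads, so this detection does not check the microglial label. Per kb of exon, the highest mean levels over all libraries were those of the lysosomal proteases Lgmn (1082 normalized counts per kb) and Ctss (1039 per kb), followed by Csf1r (490.1 per kb), P2ry12 (366 per kb) and Tyrobp (324 per kb), and the lowest were those of Vav1 (31.0 per kb) and Apbb1ip (26.2 per kb).

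Known glucocorticoid targets rose with DEX in all 3 phenotypes, where 10, 12 and 10 of the 15 on a fixed list were called higher in control, PS and AS mice and 1, 1 and 0 lower. Fkbp5, a co-chaperone of the glucocorticoid receptor, had 796 ± 61.6 (SD, n = 4) normalized counts in control mice with saline and rose to 3820.1 ± 316 with DEX. The corresponding levels were 881 ± 91.0 and 3531 ± 276 in PS mice, and 889.8 ± 139 and 3355 ± 521 in AS mice. Tsc22d3, which encodes GILZ, and the kinase gene Sgk1 rose as well in all 3. Tsc22d3 had 1299.9 ± 96.5 normalized counts with saline and 2602 ± 220.5 with DEX in control mice, and Sgk1 gave log2 fold changes of 0.67 ± 0.10, 0.79 ± 0.10 and 0.81 ± 0.10 (SE) in control, PS and AS mice. Nr3c1, the receptor gene itself, fell in control mice (log2 fold change -0.50 ± 0.10, limma adjusted p = 0.00275) and in PS mice (-0.38 ± 0.10, limma adjusted p = 0.0296), and its value in AS mice was -0.28 ± 0.10 (limma adjusted p = 0.105).

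After DEX, a number of the 35 microglia genes fell in the stressed mice, in both coping phenotypes, among them Cx3cr1, P2ry12 and Aif1, while Tmem119, Csf1r, Sall1 and Selplg were not called in a single phenotype. In PS mice 14 of the 35 members were called lower and 0 higher, against 2.62% of all genes called lower and 2.74% called higher. In AS mice 17 members were called lower and 0 higher, against 4.95% and 3.82% of all genes. In control mice 3 members were called lower and 3 higher, against 2.46% and 4.03% of all genes. The members' median log2 fold change after DEX was -0.06 in control, -0.35 in PS and -0.34 in AS mice, with the median of all genes within 0.01 of 0 in each. The DEX and saline groups did not overlap, with DEX lower, for 18 members in PS mice (4.57% of all genes) and for 19 in AS mice (5.02% of all genes), and for 4 in control mice (4.32% of all genes). All 14 members called lower in PS mice were also called lower in AS mice, where they made up 82.4% of the calls, and the additional 3 were Cd68, Olfml3 and Lyn. P2ry12, Fcrls and Aif1 were called lower in all 3 phenotypes. With only the groups compared in the fit, the control calls of Fcrls, Aif1 and Fcgr3 were lost, and 3 of the 6 members called in control mice were left. Each phenotype had its own saline and DEX libraries, so these 3 comparisons share no library, although they share one estimate of the spread. Without AS DEX mouse 42 the AS count was 11. With library size as a covariate, 6 members were called in control mice, 13 in PS mice and 17 in AS mice. The shares of all genes above belong to the fit without these changes. Counts from the changed fits therefore do not tell a change of the members from one of the whole table.

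**Figure D1:**
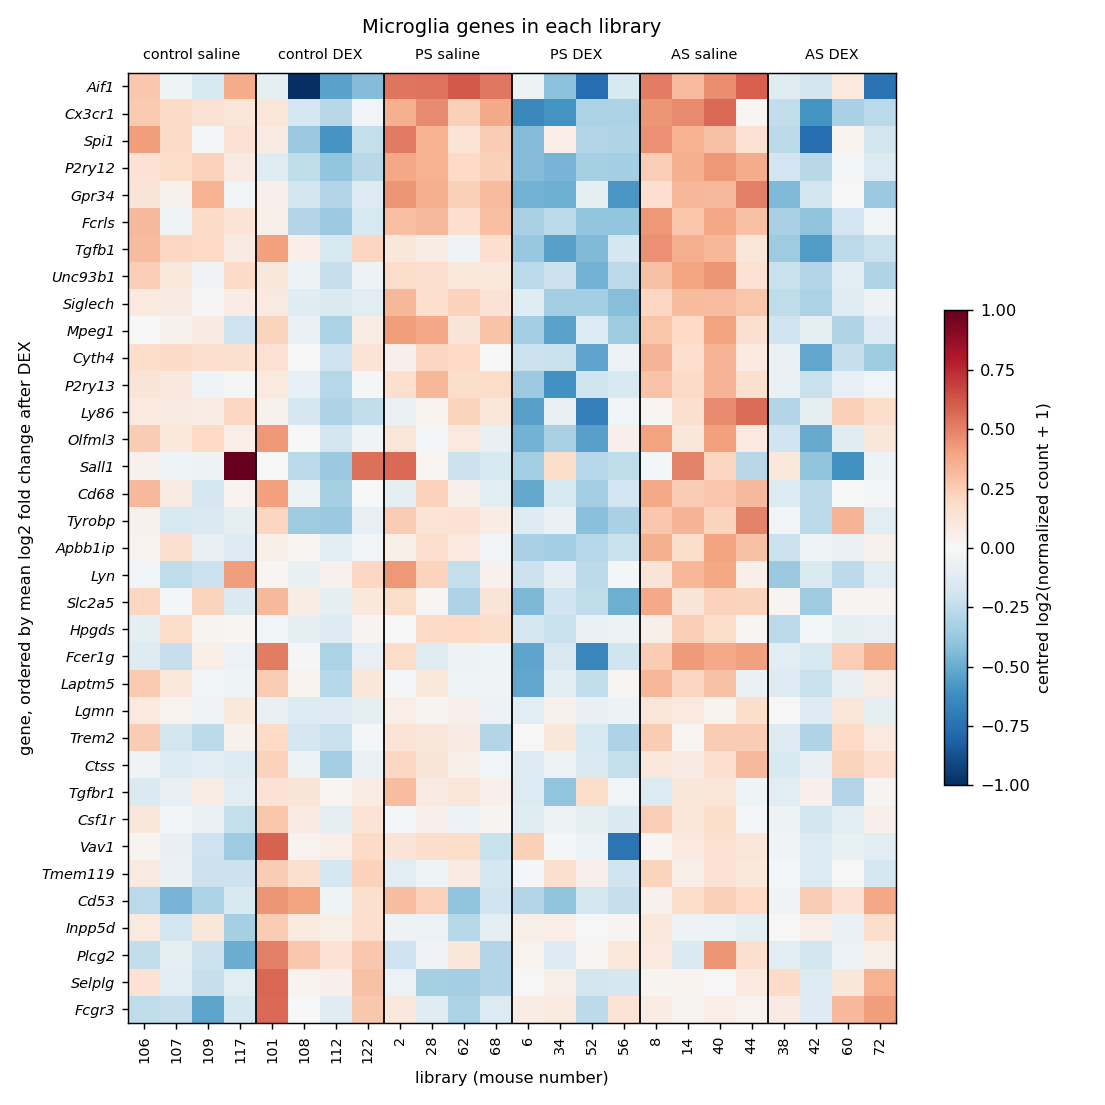
Heat map of the 35 microglia genes (rows, ordered by mean log2 fold change after DEX) in 24 libraries (columns, by group and mouse number), with colour for log2(normalized count + 1) centred per gene over the 24 libraries. The upper rows are low in the PS and AS mice with DEX, and the AS mice with saline are the highest group for most rows.

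The chemokine and purine receptors were the role group in which every measured member moved. All 4 (Cx3cr1, P2ry12, P2ry13 and Gpr34) fell after DEX in PS mice and all 4 in AS mice, and P2ry12 alone passed the test in control mice. Cx3cr1 (chr9:119901616-120069879, minus strand, mm10) encodes the receptor for fractalkine, a chemokine that neurons carry on their surface. Its normalized counts were 1251, 1354, 1380.2 and 1468 in PS mice with saline and 676, 699.7, 851 and 851 in PS mice with DEX. In AS mice they were 1075, 1435, 1467 and 1568 with saline and 701, 847, 876 and 891 with DEX. In control mice they were 1149, 1179, 1209 and 1267 with saline and 872, 941, 1041 and 1152 with DEX. The groups were apart in PS and AS mice, and in control mice they overlapped narrowly. Cx3cr1 fell by 43.8% in PS mice (log2 fold change -0.83 ± 0.11, SE, limma adjusted p = 2.81e-05) and by 39.8% in AS mice (-0.73 ± 0.11, limma adjusted p = 0.000119). The value in control mice did not pass the test (-0.27 ± 0.11, limma adjusted p = 0.198).

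P2ry12 (chr3:59216272-59262871, minus strand, mm10), an ADP receptor that steers microglial processes and is among the most used markers of the resting state, had the smallest adjusted p among the members in each of the 3 phenotypes. The normalized counts were 969, 1006, 1037 and 1069 in control mice with saline and 692, 752, 766 and 838 with DEX. They were 1048, 1076, 1163 and 1195 with saline and 660.1, 674, 720.4 and 725 with DEX in PS mice. They were 1084, 1169, 1179 and 1234 with saline and 752, 799, 831 and 902 with DEX in AS mice. All 12 DEX libraries were below all 12 saline libraries. The log2 fold change was -0.42 ± 0.07 in control, -0.69 ± 0.07 in PS and -0.51 ± 0.07 in AS mice (SE, limma adjusted p = 0.000333, 5.55e-07 and 4.5e-05). The 250 bases before the start site of P2ry12 are shown because this gene fell in all 3 phenotypes. The sequence is from RefSeq (GRCm38.p6, chr3:59262986-59263235, minus strand, 5′ to 3′), with the ETS core GGAA, or TTCC on the other strand, in capitals, of which this window holds 4:
P2ry12: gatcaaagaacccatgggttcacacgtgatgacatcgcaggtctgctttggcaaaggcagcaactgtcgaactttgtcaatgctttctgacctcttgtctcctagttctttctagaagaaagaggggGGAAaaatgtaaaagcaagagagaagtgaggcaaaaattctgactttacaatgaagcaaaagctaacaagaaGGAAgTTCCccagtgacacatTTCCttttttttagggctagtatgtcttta
The same receptor group holds P2ry13, another ADP receptor, which fell in PS mice (log2 fold change -0.55 ± 0.09) and AS mice (-0.34 ± 0.09), with -0.11 ± 0.09 in control mice, and its AS call was lost without AS saline mouse 40 or AS DEX mouse 42. Gpr34, a receptor for lysophosphatidylserine, had normalized counts of 304, 321, 332 and 350.4 in PS mice with saline and 172, 184, 185 and 242 with DEX. Its groups were apart, with a log2 fold change of -0.75 ± 0.12 (limma adjusted p = 0.000207), and it also fell in AS mice (-0.58 ± 0.12, limma adjusted p = 0.00256).

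**Figure D2:**
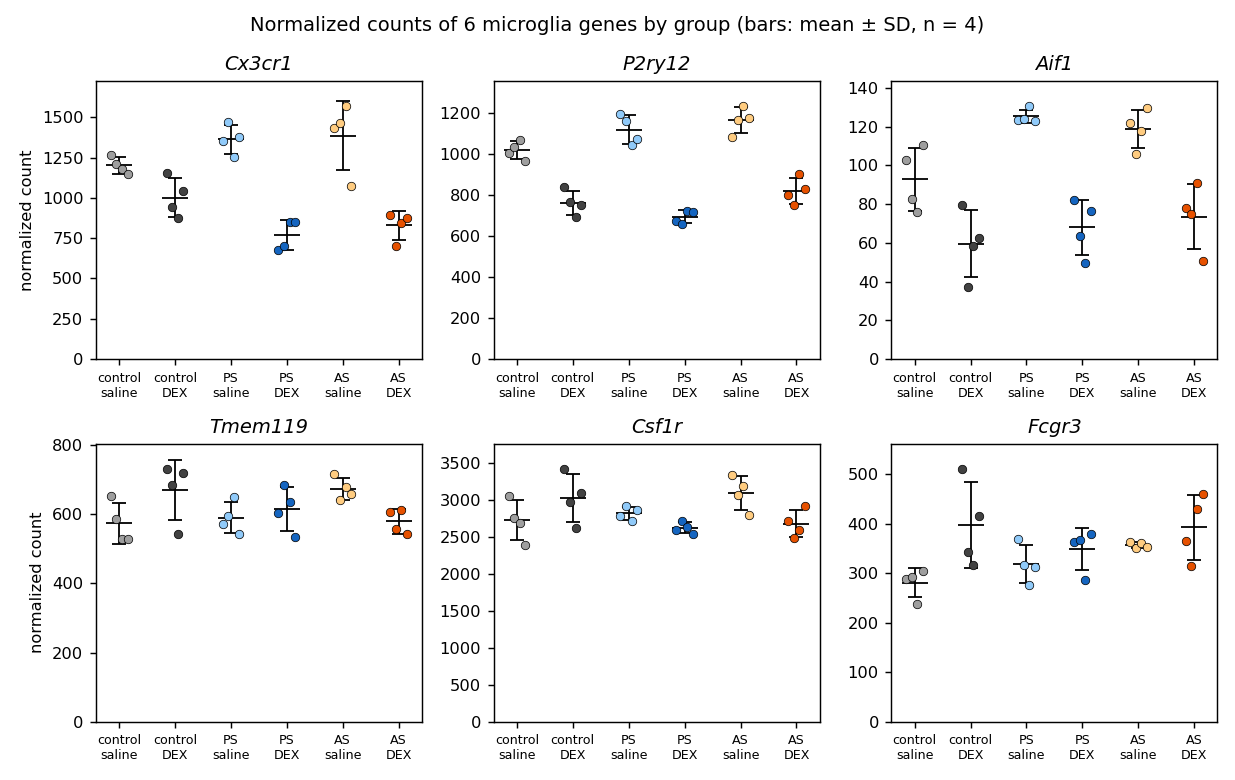
Normalized counts of Cx3cr1, P2ry12, Aif1, Tmem119, Csf1r and Fcgr3 in the 24 libraries, by group, with points for mice and bars for mean ± SD (n = 4). P2ry12 is lower in every DEX library than in any saline library, whereas the groups of Tmem119 and Csf1r lie close together and Fcgr3 is higher with DEX in control mice.

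Among the growth factor genes, the ligand gene Tgfb1 fell in stressed mice, and the receptor genes Tgfbr1 and Csf1r did not pass the test. Tgfb1, which encodes the TGF-beta ligand that maintains the microglial state, had normalized counts of 226, 261, 267 and 285 in AS mice with saline and 140.3, 161, 172 and 177 with DEX. In PS mice the counts were 202, 218, 224 and 232 with saline and 141, 152, 159 and 183 with DEX. In control mice they were 221, 238, 239 and 258 with saline and 185, 217, 240.5 and 276 with DEX. The DEX libraries were below the saline libraries in both stressed phenotypes and overlapped with them in control mice. The log2 fold change was -0.67 ± 0.11 in AS mice (limma adjusted p = 0.000487) and -0.47 ± 0.11 in PS mice (limma adjusted p = 0.0156), and -0.07 ± 0.11 in control mice (limma adjusted p = 0.853). Without the libraries high in olfactory bulb markers, described with Sall1 below, Tgfb1 no longer passed the test in PS mice. Tgfbr1, the type I receptor for this ligand, gave 0.16 ± 0.10, -0.24 ± 0.10 and -0.09 ± 0.10 in control, PS and AS mice. Csf1r, the survival receptor of microglia, was the member with the most normalized counts. Its counts were 2391, 2694, 2762 and 3049 with saline and 2628, 2979.6, 3091 and 3420.2 with DEX in control mice. In PS mice they were 2712, 2786, 2869.7 and 2918 with saline and 2543, 2597, 2633 and 2723 with DEX, and in AS mice 2792, 3065, 3186 and 3343 with saline and 2483, 2601, 2720.2 and 2925 with DEX. The groups overlapped within every phenotype, and the log2 fold changes were 0.15 ± 0.08, -0.10 ± 0.08 and -0.21 ± 0.08 (limma adjusted p = 0.347, 0.651 and 0.122). Of the exon bases of Csf1r, 15.1% are shared with Hmgxb3 on the opposite strand, and a strand setting for the read counting is not given in the sources used here.

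Of the transcription factors, Spi1, which encodes PU.1, fell in both stressed phenotypes. The normalized counts of Spi1 were 115, 125, 133 and 150.3 in PS mice with saline and 77.2, 84.9, 85.0 and 109 with DEX, and 116, 128, 133 and 144 with saline and 61.2, 86.6, 92.1 and 107 with DEX in AS mice. In control mice they were 103, 116, 119 and 140.4 with saline and 69.1, 80.7, 88.3 and 111 with DEX. DEX libraries lay below saline libraries in PS and AS mice and overlapped with them in control mice. The log2 fold change was -0.56 ± 0.16 in PS (limma adjusted p = 0.053), -0.61 ± 0.16 in AS (limma adjusted p = 0.0238) and -0.46 ± 0.16 in control mice (limma adjusted p = 0.114). The call in PS mice was lost without the libraries high in olfactory bulb markers and without PS saline mouse 2 or 28 or PS DEX mouse 6, 52 or 56, and the call in AS mice was lost without AS DEX mouse 42.

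PU.1 binds a purine-rich element around an ETS core, and the members' promoters were searched for 1 strict form of it. RefSeq promoter windows (GRCm38.p6, 250 bases before to 50 after a start site) were matched for 27 of the 35 members, giving 32 windows. The letters GAGGAAGT, on either strand, were found in 7 of the 32 windows (21.9%), in 2.69% of the 12960 windows of genes in the table and in 3.20% of all 32851 windows. The 7 genes were Apbb1ip, Cd53, Ctss, Cyth4, Hpgds, Inpp5d and Vav1. Their matches are shown with 10 bases on each side, 5′ to 3′ on the gene's strand, with the 8 letters, or their reverse complement ACTTCCTC, in capitals:
Inpp5d (chr1:87620282-87620309, plus strand): tttctataatGAGGAAGTtctgtgcagc
Apbb1ip (chr2:22774322-22774349, plus strand): ggctcaaagcACTTCCTCctccctgagc
Ctss (chr3:95526774-95526801, plus strand): atgaaagttcACTTCCTCattgtggatg
Cd53 (chr3:106790126-106790153, minus strand): actcagtctcACTTCCTCactcttctcg
Hpgds (chr6:65144762-65144789, minus strand): cttttaggtgGAGGAAGTggcctctggc
Cyth4 (chr15:78597063-78597090, plus strand): gccagggctgACTTCCTCccacagggtc
Vav1 (chr17:57279079-57279106, plus strand): agtcacagaaGAGGAAGTggtgttgtag
Of these 7 genes, Apbb1ip, Cyth4 and Hpgds fell after DEX in PS and AS mice and Cd53 rose in control mice, while Ctss, Inpp5d and Vav1 passed the test in no single phenotype. The ETS-IRF composite element was present in 1 member window, that of Cd68 (2.15% of windows of genes in the table). A full palindromic glucocorticoid response element was in 0 of the 32 windows (0.355% of windows of genes in the table), and the SMAD box GTCTAGAC was also in 0 (0.231%). The bare core GGAA, which the PU.1 form and the composite contain, was in 31 of 32 member windows and in 94.9% of windows of genes in the table. These matches are letters in a window and not measured binding.

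The second transcription factor, Sall1, which maintains microglial identity, was highest in libraries with many reads on olfactory bulb markers. Sall1 had 1512 normalized counts in control saline mouse 117, against 646 to 691 in the other 3 mice of that group. The 4 of 5 olfactory bulb markers that were in the table (Doc2g, Eomes, Th and Cdhr1, the most abundant) summed to 4709 normalized counts in mouse 117, with a median of 197 over the 24 libraries. Further libraries with sums over 5 times that median were PS DEX mouse 34 (sum 3719, Sall1 758), AS saline mouse 14 (sum 1691, Sall1 947) and PS saline mouse 2 (sum 1653, Sall1 995). Sall1 was the highest of its group in each of them, control DEX mouse 122 was also high in both (sum 938, Sall1 984), and the part of olfactory bulb tissue in its level was not tested. The log2 fold change of Sall1 after DEX was -0.30 ± 0.25, -0.23 ± 0.25 and -0.34 ± 0.25 in control, PS and AS mice, with the largest SE of the 35 members, and did not pass the test. Without the 4 libraries, 5 members were called after DEX in control mice, 10 in PS mice and 15 in AS mice. These counts come from a fit on fewer libraries and are given without its share of all genes. They therefore do not show a change particular to the members.

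**Figure D3:**
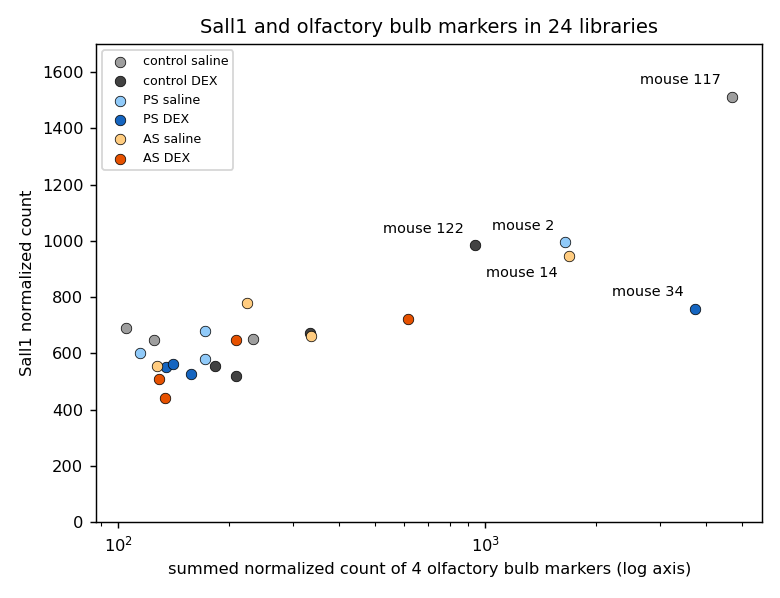
Sall1 normalized counts (y) against the summed normalized counts of 4 olfactory bulb markers (x, log axis) in 24 libraries, coloured by group. Mouse 117 is highest on both axes (4709 and 1512), and mice 34, 2 and 14 also lie far to the right.

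The immune receptors and their adaptors were mixed, with both directions in control mice. Fcrls, an Fc receptor-like gene typical of mouse microglia, had normalized counts of 539.8, 613, 637 and 697 with saline and 433, 455, 497 and 581 with DEX in control mice. In PS mice they were 627, 687, 687 and 697 with saline and 422, 423, 446 and 461 with DEX, and in AS mice 674, 684, 727 and 751 with saline and 422, 445, 489 and 546 with DEX. The groups were apart in PS and AS mice and overlapped in control mice. The log2 fold change was -0.34 ± 0.09 in control (limma adjusted p = 0.0309), -0.62 ± 0.09 in PS (limma adjusted p = 0.000132) and -0.58 ± 0.09 in AS mice (limma adjusted p = 0.000246). The call in control mice was lost with only the groups compared in the fit and without control saline mouse 106, control DEX mouse 108 or control DEX mouse 112. Siglech, a sialic acid-binding lectin, fell in PS (-0.53 ± 0.08) and AS mice (-0.46 ± 0.08), with -0.13 ± 0.08 in control mice.

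In control mice Fcgr3, a low-affinity receptor for IgG, and Cd53, a tetraspanin of leukocytes, rose. Fcgr3 had normalized counts of 239, 289, 293 and 304 with saline and 317, 343, 416 and 511 with DEX (log2 fold change 0.48 ± 0.13, limma adjusted p = 0.042). Cd53 had 116, 128, 132 and 143 with saline and 155, 179, 211 and 217 with DEX (0.54 ± 0.14, limma adjusted p = 0.0223). The groups were apart for both genes, and the Fcgr3 call was lost with only the groups compared in the fit and without control saline mouse 109, control DEX mouse 101 or control DEX mouse 122. In stressed mice the log2 fold changes were 0.13 ± 0.13 (PS) and 0.12 ± 0.13 (AS) for Fcgr3 and -0.26 ± 0.14 and 0.02 ± 0.14 for Cd53, and none passed the test. Trem2, a lipid receptor that signals through the adaptor Tyrobp, had normalized counts of 283, 299, 349 and 405 with saline and 291, 301, 335 and 389 with DEX in control mice. In PS mice they were 276, 359, 366 and 373 with saline and 273, 302, 339 and 366 with DEX, and in AS mice 343, 403, 405 and 405 with saline and 275, 310.2, 362 and 389.7 with DEX. The groups of Trem2 overlapped in every phenotype, with log2 fold changes of -0.02 ± 0.13, -0.10 ± 0.13 and -0.23 ± 0.13. Tyrobp itself gave -0.06 ± 0.13, -0.39 ± 0.13 and -0.35 ± 0.13 (limma adjusted p = 0.105 in PS and 0.119 in AS mice), and Fcer1g, the gamma chain shared by Fc receptors, 0.11 ± 0.15, -0.38 ± 0.15 and -0.28 ± 0.15. Ly86, a partner of the Toll-like receptor homologue RP105, gave -0.29 ± 0.15, -0.41 ± 0.15 and -0.30 ± 0.15 and passed the test in no single phenotype.

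In the lysosomal and endosomal group, Mpeg1 and Unc93b1 fell in both stressed phenotypes and Cd68 in AS mice. Mpeg1, a pore-forming protein of phagosomes, had normalized counts of 854, 951, 1024 and 1044 with saline and 538, 609, 617 and 710.2 with DEX in PS mice (log2 fold change -0.65 ± 0.10, limma adjusted p = 0.000255). In AS mice the counts were 872, 896, 946 and 1031 with saline and 632, 681, 714 and 734 with DEX (-0.44 ± 0.10, limma adjusted p = 0.0092). The groups of Mpeg1 were apart in both, and in control mice the change was -0.00 ± 0.10. Unc93b1, which delivers nucleic acid-sensing Toll-like receptors to endosomes, fell in PS (-0.45 ± 0.09) and AS mice (-0.55 ± 0.09). Cd68, a lysosomal glycoprotein used to mark phagocytic cells, fell in AS mice (-0.41 ± 0.13, limma adjusted p = 0.0607) and gave -0.32 ± 0.13 in PS mice (limma adjusted p = 0.224). The Cd68 call was lost with quantile normalization, without the libraries high in olfactory bulb markers and without AS saline mouse 8 or 40 or AS DEX mouse 38 or 42. The proteases Lgmn and Ctss, the most abundant members per kb, passed the test in no single phenotype. Lgmn gave -0.16 ± 0.06, -0.07 ± 0.06 and -0.13 ± 0.06, and Ctss 0.05 ± 0.10, -0.23 ± 0.10 and -0.13 ± 0.10, in control, PS and AS mice. Laptm5, a lysosomal membrane protein, gave -0.05 ± 0.11, -0.22 ± 0.11 and -0.28 ± 0.11.

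The signalling genes inside the cell were mixed. Cyth4, an exchange factor for ARF GTPases, and Apbb1ip, which links Rap1 to integrins, fell in PS mice (-0.37 ± 0.11 and -0.37 ± 0.08) and AS mice (-0.53 ± 0.11 and -0.38 ± 0.08), and the Src family kinase gene Lyn fell in AS mice (-0.44 ± 0.14). The Lyn call was lost with quantile normalization and without AS saline mouse 14 or 40 or AS DEX mouse 38 or 42. That of Cyth4 in PS mice was lost without the libraries high in olfactory bulb markers and without PS saline mouse 28 or 62 or PS DEX mouse 52. Plcg2, a phospholipase downstream of immune receptors, rose in control mice. Its normalized counts were 102, 121, 124 and 135 with saline and 159.7, 174, 175 and 205 with DEX (log2 fold change 0.56 ± 0.12, limma adjusted p = 0.00655). In AS mice they were 130.4, 155, 162 and 197 with saline and 127, 134, 139 and 151 with DEX (-0.21 ± 0.12, limma adjusted p = 0.384), and in PS mice 118, 125, 141 and 156 with saline and 132, 146, 148 and 156 with DEX (0.11 ± 0.12). The control groups were apart and the stressed groups overlapped. Vav1, a guanine nucleotide exchange factor, gave 0.37 ± 0.16, -0.21 ± 0.16 and -0.18 ± 0.16 in the 3 phenotypes, and Inpp5d, which encodes the lipid phosphatase SHIP1, 0.22 ± 0.09, 0.16 ± 0.09 and 0.07 ± 0.09. Neither passed the test in a single phenotype.

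Of the surface, secreted and metabolic genes, Aif1 was called lower in all 3 phenotypes and Tmem119 in none. Aif1 (chr17:35170991-35176068, minus strand, mm10) encodes IBA1, the actin-binding protein by which microglia are most often stained. Its normalized counts were 75.8, 82.4, 103 and 110.4 in control mice with saline and 37.3, 58.4, 62.7 and 79.7 with DEX. In PS mice they were 123, 124, 124 and 130.5 with saline and 49.8, 63.8, 76.2 and 82.1 with DEX, and in AS mice 106, 118, 122 and 129 with saline and 50.7, 74.8, 78.0 and 90.8 with DEX. The groups were apart in PS and AS mice and touched in control mice, where 1 DEX library lay within the saline range. Aif1 fell by 36.9% in control (-0.66 ± 0.20, limma adjusted p = 0.0555), fell by 46.3% in PS (-0.90 ± 0.20, limma adjusted p = 0.00752) and fell by 38.8% in AS mice (-0.71 ± 0.20, limma adjusted p = 0.0317). The call in control mice was lost with only the groups compared in the fit, without the libraries high in olfactory bulb markers and without control saline mouse 106 or 117 or control DEX mouse 108, and that in AS mice without AS DEX mouse 72. Aif1 had the largest fall of the members in PS mice and is therefore shown with the 250 bases before its RefSeq start site (GRCm38.p6, chr17:35176053-35176302, minus strand, 5′ to 3′, GGAA or TTCC in capitals, 2 in all). The last 16 bases of this window, which hold the TTCC, lie in an annotated exon of the gene model:
Aif1: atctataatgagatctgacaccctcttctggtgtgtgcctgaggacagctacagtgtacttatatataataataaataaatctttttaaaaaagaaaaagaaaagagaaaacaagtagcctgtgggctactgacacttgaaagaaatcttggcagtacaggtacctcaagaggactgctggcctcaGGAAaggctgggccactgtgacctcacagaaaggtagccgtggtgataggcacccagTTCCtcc
Tmem119, a membrane protein used to tell microglia from blood-derived macrophages, had normalized counts of 529, 529.5, 585 and 653 with saline and 542, 685, 719 and 731 with DEX in control mice. In PS mice they were 545, 571, 596 and 649.8 with saline and 533, 604, 636 and 685 with DEX, and in AS mice 640.2, 659, 678 and 717 with saline and 542, 557, 607 and 613 with DEX. DEX libraries were below saline libraries in AS mice and overlapped with them in control and PS mice, and the log2 fold changes were 0.22 ± 0.09, 0.06 ± 0.09 and -0.22 ± 0.09 (limma adjusted p = 0.251, 0.894 and 0.212). Hpgds, a prostaglandin D synthase, fell in PS (-0.27 ± 0.08) and AS mice (-0.24 ± 0.08), and the secreted protein gene Olfml3 in AS mice (-0.43 ± 0.14). Both Hpgds calls were lost with quantile normalization, with only the groups compared and without the libraries high in olfactory bulb markers, and the PS call also with library size as a covariate. The PS call of Hpgds was lost without any 1 of 5 libraries and its AS call without any 1 of 13 of the 24, control and PS libraries included. That of Olfml3 was lost with only the groups compared and without AS saline mouse 8 or 40 or AS DEX mouse 38 or 42. Slc2a5, a fructose transporter, gave 0.04 ± 0.13, -0.35 ± 0.13 and -0.31 ± 0.13, and Selplg, the ligand of P-selectin, 0.32 ± 0.11, 0.18 ± 0.11 and 0.09 ± 0.11. Neither passed the test in a single phenotype.

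**Figure D4:**
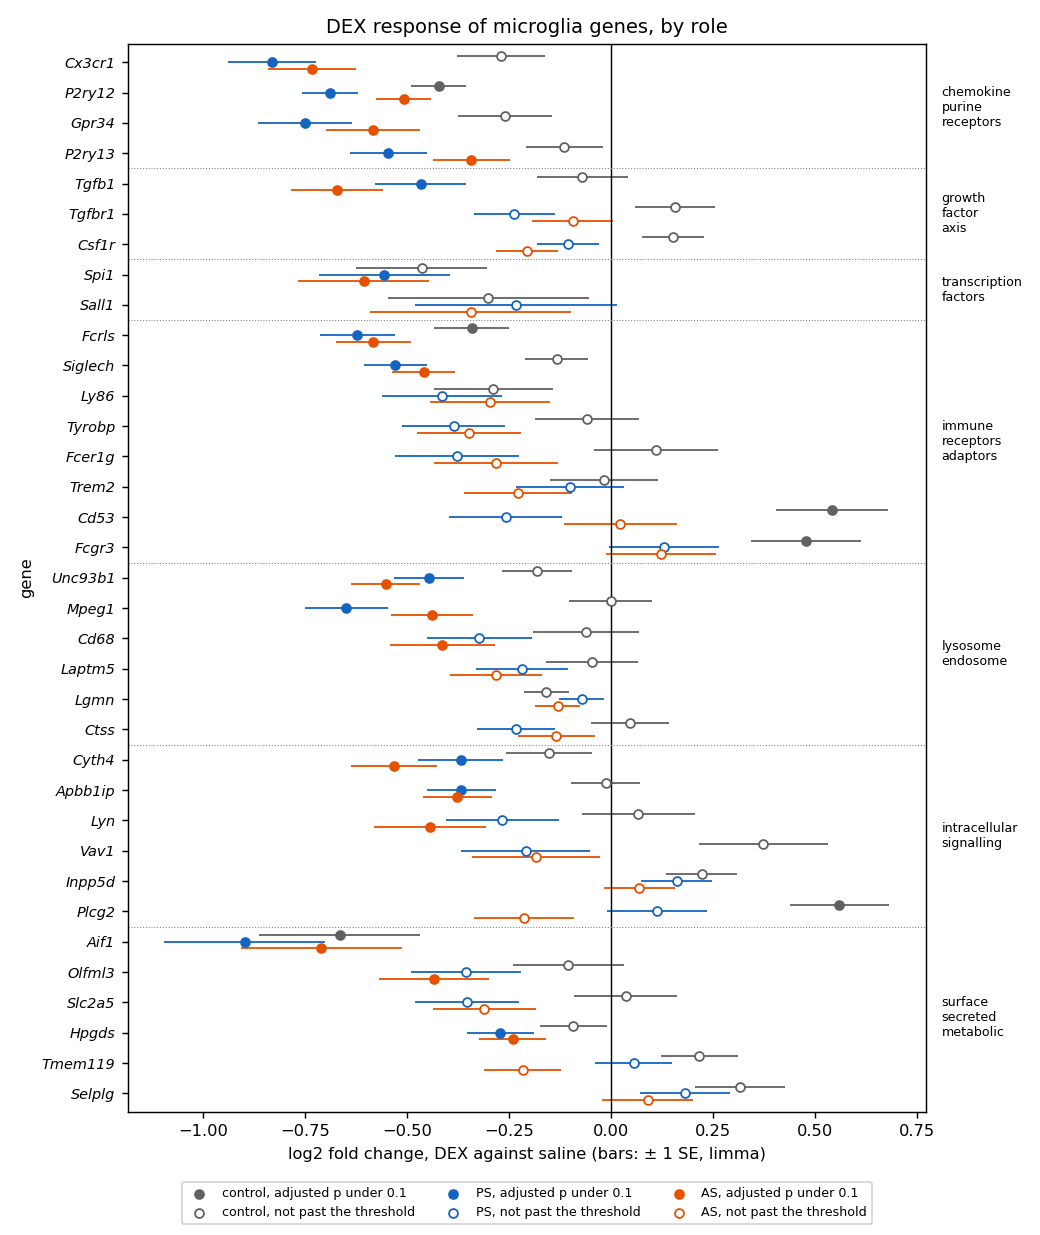
Log2 fold change of each microglia gene after DEX against saline (x, bars ± 1 SE from limma) in control, PS and AS mice, grouped by role, with filled points where the adjusted p was under 0.1. The chemokine and purine receptors lie left of 0 in all 3 phenotypes, and Plcg2, Cd53 and Fcgr3 lie to the right in control mice.

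With the DEX effect averaged over the 3 phenotypes, 22 members were called lower and 3 higher, against 8.01% and 7.46% of all genes, and the members' median log2 fold change was -0.25. The largest falls were those of Aif1 (-0.76 ± 0.11, limma adjusted p = 3.38e-05), Cx3cr1 (-0.61 ± 0.06, limma adjusted p = 1.32e-07) and Spi1 (-0.54 ± 0.09, limma adjusted p = 0.000172). The 3 that rose were Fcgr3 (0.24 ± 0.08), Selplg (0.20 ± 0.06) and Inpp5d (0.15 ± 0.05). The Inpp5d call was lost without the libraries high in olfactory bulb markers and without PS saline mouse 62.

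Whether the DEX response itself differed between phenotypes was tested with interaction terms. Each compared the group means of 16 libraries, with the spread estimated over all 24. For PS against control mice limma called 0 members and 0.0% of all genes. At an unadjusted p under 0.05 it counted 18 of 35 members (9.98% of all genes), edgeR called 0 (0.0% of all genes) and DESeq2 called 2 lower, Cd53 and Mpeg1 (0.164% of the genes to which it gave an adjusted p). The median member difference was -0.28. For AS against control mice limma called 1 member lower (0.348% of all genes either way, 0.163% lower), with 13 of 35 at an unadjusted p under 0.05 (13.5% of all genes), and the median was -0.33. That member was Plcg2 (-0.77 ± 0.17, limma adjusted p = 0.0785), which lost its call under several alternatives. edgeR called 2, Plcg2 and Tgfb1 (0.547% of all genes). DESeq2 called 7, which were Csf1r, Cx3cr1, Mpeg1, Plcg2, Tgfb1, Tmem119 and Unc93b1 (3.18% of the genes to which it gave an adjusted p). limma called the same 7 members without AS saline mouse 44 (4.87% of all genes) and those 7 with Apbb1ip and Cd53 without control DEX mouse 112 (4.72%). It called 0 without any 1 of 12 other libraries, in fits that called 0.0284% to 0.171% of all genes. The difference was below 0 for each of these members. Each fit that called 2 or more members also called a larger share of all genes than limma did over all 24 libraries. For AS against PS mice 0 members and 0.0% of all genes were called by limma, with 0 of 35 members at an unadjusted p under 0.05 (2.44% of all genes). edgeR and DESeq2 also called 0 members and 0.0% of the genes they tested, and the median was -0.01. For Cx3cr1 the difference from the control response was -0.56 ± 0.15 in PS (limma adjusted p = 0.294) and -0.46 ± 0.15 in AS mice (limma adjusted p = 0.173). For Mpeg1 it was -0.65 ± 0.14 (limma adjusted p = 0.194) and -0.44 ± 0.14 (limma adjusted p = 0.172).

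In mice given saline, no member was called after stress by limma in the fit over all 24 libraries. For PS against control mice limma called 0 members (1.51% of all genes called either way), with 4 at an unadjusted p under 0.05 (13.1% of all genes). edgeR called 0 members and also 1.51% of all genes. Mpeg1 was called higher by DESeq2 (3.13% of the genes to which it gave an adjusted p) and by limma fitted on only the groups compared (3.72% of all genes). For AS against control mice 0 were called by limma (0.156% of all genes) and 0 by edgeR and by DESeq2, with 15 of 35 at an unadjusted p under 0.05 (11.0% of all genes). For AS against PS mice 0 members and 0.0% of all genes were called by limma and 0 members by edgeR and by DESeq2, with 6 members at an unadjusted p under 0.05 in limma (4.77% of all genes). For these comparisons of AS mice, the edgeR and DESeq2 counts are given without their shares of all genes. They therefore do not tell the members from the whole table. The direction was nonetheless one-sided in AS mice. The log2 fold change against control was above 0 for 34 of 35 members in AS mice (50.9% of all genes), the exception being Sall1, and for 24 in PS mice (50.6%). It was above 0 for 29 members in AS against PS mice (49.3% of all genes), with 4 higher without overlap (2.86% of all genes). The AS and control groups did not overlap, with AS higher, for 10 members (3.45% of all genes), which were Cd53, Fcgr3, Fcer1g, Tyrobp, Siglech, P2ry12, P2ry13, Ctss, Mpeg1 and Apbb1ip. The PS groups were higher than control without overlap for 6 (5.15% of all genes), which were P2ry13, Tyrobp, Siglech, Aif1, Ctss and Mpeg1. The median member value was 0.19 for AS and 0.11 for PS against control. Cd53 gave 0.47 ± 0.14, Fcer1g 0.45 ± 0.15 and Tyrobp 0.42 ± 0.13 in AS against control mice (limma adjusted p = 0.242, 0.293 and 0.242). In PS mice the largest value was that of Aif1 (0.45 ± 0.20, limma adjusted p = 0.327). The saline libraries of PS and AS mice serve both here and as the baseline of the DEX comparisons, so a high saline group raises the one value and lowers the other.

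The mean level of the 35 members in a library, as the mean of log2(normalized count + 1) centred per gene, put these comparisons on 1 scale. It was 0.02 ± 0.06 (SD, n = 4) in control mice with saline and -0.01 ± 0.18 with DEX. It was 0.10 ± 0.07 and -0.23 ± 0.04 in PS mice, and 0.22 ± 0.04 and -0.11 ± 0.09 in AS mice. All 4 PS and all 4 AS libraries with DEX were below every saline library of their phenotype, whereas the control DEX libraries ran from -0.20 (mouse 112) to 0.21 (mouse 101) around the saline libraries. The 4 AS saline libraries, at 0.18 to 0.28, were above the 4 control saline libraries, at -0.03 to 0.10. The members did not all vary together within groups. After group means were removed, the correlation of a gene with the mean of the other members over the 24 libraries was highest for Fcgr3 (Pearson r = 0.841) and Spi1 (0.807), and near 0 for Hpgds (-0.033) and Tgfbr1 (-0.065).

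Markers of other cells moved beside these values. The astrocyte markers, of which Slc1a2 was the most abundant, were the list whose mean level followed the microglial one most closely within groups. Pearson r was 0.889 and Spearman rho 0.878 over 24 libraries, with r = 0.820 without the 2 libraries farthest out. Both levels come from the same libraries. The astrocyte sum was 127684 ± 10508 normalized counts with saline and 141681 ± 11298 with DEX in control mice. It was 132735 ± 8245 and 121321 ± 7580 in PS mice, and 136537 ± 11346 and 128748 ± 14178 in AS mice. The endothelial markers, all 10 in the table, summed to 6821 ± 1024 normalized counts with saline and 7975 ± 1355 with DEX in control mice, 6697 ± 1021 and 5656 ± 1773 in PS mice, and 6988 ± 1493 and 4439.7 ± 1086 in AS mice. In AS mice 5 of them were called lower (4.95% of all genes), led by Tek (-1.25 ± 0.25) and Flt1 (-0.85 ± 0.21), the most abundant. The 9 mural markers, with Rgs5 the most abundant, summed to 6403 ± 851 and 7501 ± 1312 in control mice, 6269 ± 744 and 5216 ± 1488 in PS mice, and 7162 ± 1880 and 4423 ± 435 in AS mice. Of these 9, 5 were called lower in AS mice (4.95% of all genes). The means of both sums were thus higher with DEX in control mice and lower with DEX in PS and AS mice. In PS mice 1 endothelial and 0 mural markers were called lower (2.62% of all genes). In control mice 0 were called (4.03% of all genes called higher and 2.46% lower). Of the border macrophage markers 5 of 10 were in the table, the most abundant being Stab1, and Cd163, F13a1, Ms4a7, Clec10a and Cd209f were not analysed here. Their sum was 906 ± 126 and 1285 ± 155 in control mice with saline and DEX, 1045 ± 200 and 878 ± 244 in PS mice, and 1219 ± 309 and 843 ± 172 in AS mice. Pf4 fell in PS (-1.86 ± 0.44) and AS mice (-1.60 ± 0.44), whereas Lyve1 rose in control (1.55 ± 0.20) and PS mice (0.73 ± 0.20). Of the blood cell markers, 2 of 7 for monocytes, 1 of 6 for neutrophils and 1 of 11 for lymphocytes were in the table, led by Fn1, Csf3r and Trbc2, and 0 were called by limma after DEX in a single phenotype (1 monocyte marker in control mice, 1 in AS mice and the neutrophil marker in PS mice had an unadjusted p under 0.05). The monocyte markers summed to 3279.9 ± 553 and 4521 ± 483 normalized counts in control mice with saline and DEX, 3489 ± 733 and 2899 ± 940.0 in PS mice, and 3783 ± 962 and 2686 ± 329 in AS mice. Csf3r had 211 ± 37.1 and 191 ± 33.9 in control, 188 ± 25.7 and 152 ± 14.97 in PS and 229.9 ± 23.7 and 199 ± 24.6 in AS mice, and within groups it followed the microglial mean level with r = 0.649 (rho = 0.616), next after the astrocyte list. Trbc2 had 394 ± 39.6 and 322 ± 54.7 in control, 370.5 ± 60.7 and 389.8 ± 27.1 in PS and 343 ± 104 and 409.8 ± 126 in AS mice. All 5 red cell markers were in the table, and their sum was 2227 ± 499 with saline and 3003 ± 1227 with DEX in control mice, 2372 ± 378 and 1355 ± 269 in PS mice, and 2122 ± 844 and 1949 ± 1117 in AS mice. None was called by limma after DEX, with 3 at an unadjusted p under 0.05 in PS mice and 0 in control and AS mice, and within groups their mean level followed the microglial one with r = 0.545 (rho = 0.496). The leptomeningeal markers, 6 of 8 in the table and led by Col1a2, summed to 2417 ± 534 and 3262 ± 639 in control, 3463 ± 1157 and 2358 ± 1125 in PS and 3312 ± 526 and 2415 ± 729.6 in AS mice, with saline and DEX. Of these, 1 was called higher in control mice (4.03% of all genes) and 0 were called in PS or AS mice (4 and 1 at an unadjusted p under 0.05). The striatal markers, 5 of 8 in the table and led by Ppp1r1b, summed to 4817 ± 381 and 5759.5 ± 628 in control, 4752 ± 431 and 5372 ± 542 in PS and 5111 ± 327 and 6249 ± 803 in AS mice. Their mean level was higher in each DEX library than in any saline library in PS and AS mice and overlapped narrowly in control mice. The oligodendrocyte markers, led by Mbp, had a median log2 fold change of -0.47 in AS against control mice with saline. Of these, 0 of 9 were called by limma and 6 had an unadjusted p under 0.05 (0.156% and 11.0% of all genes). The part of these cells in the microglia values was not tested.

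**Figure D5:**
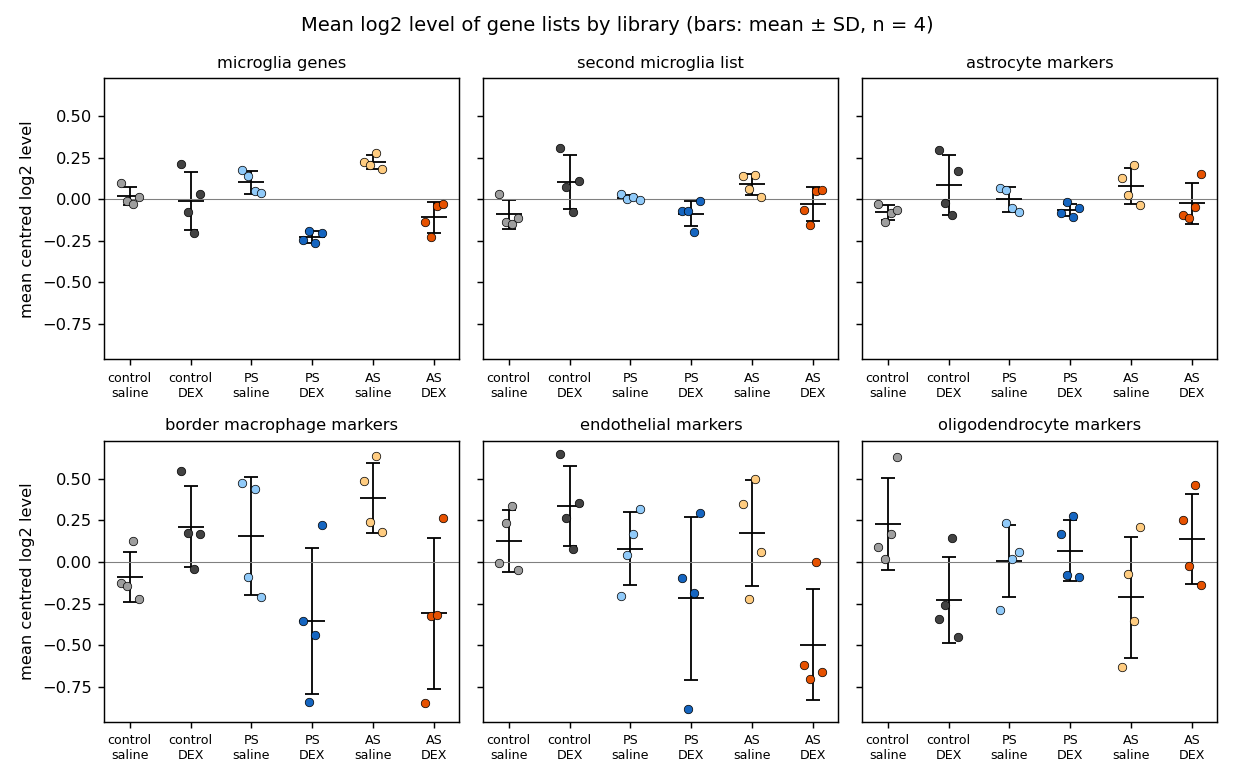
Mean centred log2 level per library (y) of the microglia genes, a second list of microglia genes, and astrocyte, border macrophage, endothelial and oligodendrocyte markers, by group, with points for mice and bars for mean ± SD (n = 4). The microglia genes separate saline from DEX in PS and AS mice, and the border macrophage and endothelial markers spread more widely within groups.

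A second list of microglia genes outside the 40, of which 22 of 31 were in the table, held calls in both directions. After DEX 4 of these 22 were called lower and 2 higher in PS mice (2.62% and 2.74% of all genes). In AS mice 6 were lower and 2 higher (4.95% and 3.82% of all genes). In control mice 1 was lower and 6 were higher (2.46% and 4.03% of all genes). Their median log2 fold change was 0.23 in control, -0.03 in PS and -0.09 in AS mice. Bin2, an adaptor of phagocytic cells, fell in all 3 phenotypes (log2 fold changes -0.49 ± 0.14, -0.82 ± 0.14 and -0.94 ± 0.14). Adgre1, which encodes F4/80, fell in PS (-0.71 ± 0.11) and AS mice (-0.62 ± 0.11). Mertk, a receptor for the uptake of dying cells that astrocytes also express, had 1585 ± 109 normalized counts with saline and 2494 ± 282 with DEX in control mice, 1590.3 ± 99.4 and 2133 ± 74.0 in PS mice, and 1579 ± 144 and 2263 ± 234 in AS mice, and it rose in each (limma adjusted p = 1.22e-05, 0.00221 and 0.000246). Tlr7, a sensor of single-stranded RNA, rose in control (1.06 ± 0.17) and AS mice (0.52 ± 0.17).

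The ligands and partners of the members' receptors were a further list, with 18 of 19 in the table and Apoe the most abundant. After DEX 1 was called higher in control mice (4.03% of all genes), and 1 higher and 3 lower in PS mice (2.74% and 2.62%). In AS mice 1 was called higher and 5 lower (3.82% and 4.95% of all genes). The medians were -0.01, -0.11 and -0.11 in control, PS and AS mice. The one that rose in each was Nrros, the protein that holds latent TGF-beta on microglia. Nrros had 170.3 ± 19.3 normalized counts with saline against 375 ± 46.9 with DEX in control mice, 189 ± 18.2 against 313 ± 29.8 in PS mice, and 206 ± 25.1 against 283 ± 37.8 in AS mice (log2 fold changes 1.13 ± 0.12, 0.72 ± 0.12 and 0.46 ± 0.12, limma adjusted p = 7.73e-07, 0.000414 and 0.0194). Ltbp1, a latent TGF-beta binding protein, fell in PS (-0.53 ± 0.10) and AS mice (-0.59 ± 0.10). Csf1, a ligand of CSF1R, fell in AS mice (-0.36 ± 0.10), and the other ligand, Il34, gave -0.11 ± 0.06. Cx3cl1, the neuronal ligand of CX3CR1, gave -0.04 ± 0.08, 0.03 ± 0.08 and 0.03 ± 0.08 in control, PS and AS mice, none past the threshold.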

How the data were processed

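Poly(A) RNA of the PFC was sequenced from strand-specific libraries, 1 per mouse, and groups were taken from the sample labels. Per the submitters' processing notes and the methods of the study, the authors trimmed reads with fastp 0.20.1, aligned them to mm10 with HISAT2 2.2.1, counted them on GENCODE genes with featureCounts of Subread 2.0 and normalized them with DESeq2 1.36.0. The deposited values are a signal, the counts that the authors divided by 1 size factor per library. Dividing a library by what 1 read is worth gave whole numbers for 100% of its values (tolerance 0.01 read), and the whole reads recovered in this way gave the depth and the count tests. The authors' tables of their own comparisons hold fold changes and p-values, which were not used, and only their gene coordinates were taken. Exon lengths came from GENCODE M21 and promoters from RefSeq.

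limma 3.58.1 in R 4.3.3 was fitted to log2(normalized count + 1) of all 14074 genes and 24 libraries, with a mean per group and an eBayes trend, and was tested on simulated data. The alternatives were a pseudocount of 8, genes with a mean of at least 100 or at least 10 reads in every library, quantile normalization, the compared groups alone, library size as a covariate, edgeR 4.0.16 and DESeq2 1.42.0 on the recovered reads, and leaving out each library. edgeR called 6 members for DEX in control, 14 in PS and 17 in AS mice, given here without its shares of all genes. Up to 3 called members each way per comparison, 6 defining genes and up to 2 called genes each way per list were given in more detail. All members could be named by role, and Il34, Csf1 and Cx3cl1 were named after their values were seen. The members and lists were chosen with earlier results of these data known. Replicates within a group differed by more than counting noise. Of the members, 4 share exon bases with a gene on the opposite strand (Csf1r with Hmgxb3 15.1%, Lyn with Gm26857 6.09%, Cx3cr1 with Gm33858 1.73% and P2ry12 with Med12l 0.353%), and the strand setting of the counting is not given in the sources used here.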

Additional observations from a re-analysis of the deposited data

Results flagged for a closer look

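Among 216 sets of 4 libraries (35 genes and the mean level in 6 groups), 13 held a library far from the other 3 by Dixon's test, where chance gives about 1 in 20. In PS mice with saline, mouse 2 was high in Selplg (758.1 normalized counts, others 622 to 644) and low in Hpgds (266.3). Mouse 62 was low in Fcrls (626.8) and high in Aif1 (130.5), mouse 68 was low in Vav1 (96.7) and Trem2 (276.5), and mouse 28 was high in P2ry13 (393.0). In control mice with saline, mouse 117 was high in Ly86 (221.9) and Sall1 (1512.1). Control DEX mouse 101 was high in Siglech (430.9), PS DEX mouse 34 was high in Sall1 (758.3), AS DEX mouse 42 was low in Slc2a5 (108.9), and AS saline mouse 14 was low in Trem2 (342.8). Mice 117, 34, 14 and 2 are the 4 libraries high in olfactory bulb markers. The response of Plcg2 to DEX differed between AS and control mice by -0.77 on the log2 scale in the interaction term.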

How the results depend on the processing

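Of 63 calls of a member in a comparison, 48 were kept in every alternative of the processing, 45 without each single library and 44 in both, and 0 reversed. With only the groups compared in the fit, 1 member was called for PS against control mice with saline (3.72% of all genes). For DEX in control mice that fit called 3, given without such a share. DESeq2 called 1 for PS against control mice with saline and 2 for the PS interaction (3.13% and 0.164% of the genes to which it gave an adjusted p). For the AS interaction 0 members were called when genes below a mean of 100 were left out (0.00832% of the 12018 genes tested). Likewise 0 were called with quantile normalization (0.22% of all genes) and with library size as a covariate (0.0497%). edgeR called 2 (0.547% of all genes) and DESeq2 called 7 (3.18% of the genes to which it gave an adjusted p). Without each library in turn, the counts ran from 5 to 8 (DEX in control), 11 to 15 (PS), 11 to 19 (AS), 22 to 26 (mean of 3 phenotypes), 0 to 1 (PS interaction) and 0 to 9 (AS interaction), and stayed at 0 in the other comparisons. Over these fits the share of all genes called ran from 0.0284% to 4.87% in the AS interaction. It ran from 0.0% to 0.0213% in the PS interaction and from 0.405% to 2.47% for PS against control mice with saline. The ranges for DEX are given without such shares. The mean level of the members moved by less than 1 SD in the 4 alternatives run for it (pseudocount 8, quantile normalization, the median over members, and members with a mean of at least 100) and without each library, and its change after DEX in control mice ran from -0.10 to 0.04 without each library. Leaving out the 4 libraries high in olfactory bulb markers was chosen after seeing the data. No paired analysis was possible because mouse numbers do not recur between groups. Low members such as Aif1 rest on few reads, and 4 mice a group limit every comparison.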

Other observations

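Genes that mark disease-associated microglia gave 15 of 19 in the table, with Fth1, which many cells express, the most abundant. Cst7, Itgax, Clec7a and Gpnmb were not analysed here. Which cells gave the values of this list, those of Lpl and Cd63 included, was not tested. In mice given saline, Lpl, a lipoprotein lipase, rose in PS (log2 fold change 0.58 ± 0.12, limma adjusted p = 0.0203) and AS mice (0.65 ± 0.12, limma adjusted p = 0.0174) against control mice, and Cd63 rose in PS mice (0.40 ± 0.11). Lpl fell after DEX in PS (-0.45 ± 0.12) and AS mice (-0.46 ± 0.12), and the same saline libraries serve both comparisons. Its normalized counts were 285 ± 22.5 (SD, n = 4) in control, 425 ± 24.8 in PS and 449 ± 49.8 in AS mice with saline, and 286 ± 56.8, 312 ± 24.9 and 326 ± 46.4 with DEX. Lyz2, the lysozyme of macrophages, fell after DEX in PS (-0.74 ± 0.23) and AS mice (-0.86 ± 0.23). In all, 3 genes of this list were called lower after DEX in PS mice (2.62% of all genes) and 5 in AS mice (4.95%). In control mice 0 were called (4.03% of all genes called higher and 2.46% lower).

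Of 18 inflammatory genes 4 were in the table. Nfkbia, an inhibitor of NF-kappaB, rose after DEX in control (0.56 ± 0.12) and PS mice (0.50 ± 0.12), and Ptgs2, which encodes COX-2, rose in control mice (0.63 ± 0.15), while Nfkb1 fell in AS mice (-0.23 ± 0.07). Of 10 proliferation genes 2 were in the table and 0 were called by limma in any comparison, with 1 at an unadjusted p under 0.05 for PS against control mice with saline.

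Among 11981 other genes (mean normalized count 100 or more), those that followed the mean level of the microglia genes most closely after group means were removed were Mlc1, Plpp3, Nr1h2, Sox9, Glul, Lhx2, Mmd2, Mfge8, Fads1 and Ctdsp1 (Pearson r from 0.859 for Ctdsp1 to 0.905 for Mlc1 over 24 libraries). Without the 2 libraries farthest out, r ran from 0.718 for Glul to 0.870 for Sox9. Spearman rho over 24 libraries ran from 0.756 for Glul to 0.917 for Sox9. Sox9, Glul and Mlc1 are known as astrocyte genes.

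Some lists had calls after DEX that were not given above. Of all genes, 4.03% were called higher and 2.46% lower in control mice, 2.74% and 2.62% in PS mice, and 3.82% and 4.95% in AS mice. The 10 astrocyte markers gave 2 higher and 0 lower in control mice, 2 and 1 in PS mice and 1 and 2 in AS mice. Fgfr3 was higher in all 3 (0.53 ± 0.07, 0.41 ± 0.07 and 0.27 ± 0.07) and Aqp4 lower in PS and AS mice (-0.53 ± 0.09 and -0.49 ± 0.09). Oligodendrocyte markers gave 3 lower in control mice, led by Opalin (-1.30 ± 0.25), and 2 higher in AS mice, led by Mobp (0.96 ± 0.19). Of 6 oligodendrocyte precursor markers 2 were higher and 1 lower in control mice, of 7 excitatory neuron markers 1 was lower in control and 2 were higher in AS mice, and of 7 inhibitory neuron markers 1 was higher in control and 2 in AS mice, with none called in PS mice after DEX.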
